A study of Mus musculus with 10 samples.

Results

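Pancreas and liver, 2 organs that secrete large amounts of protein and arise from the foregut, were compared by the messenger RNA each held on Affymetrix arrays. The members of the comparison are the probe sets, outside the controls, whose intensity on the pancreas or the liver array exceeded that array's noise bound, the size of the 1st percentile of its values. By this rule 3719 of 13057 probe sets were members, with 2483 of the 6523 on chip A and 1236 of the 6534 on chip B. Both organs came from adult female C57BL/6 mice without any treatment or engineered allele in the labels, and 10 µg of total RNA was labelled for the arrays. The number of mice behind a sample, and whether animals were pooled, is not given in the sources used here. Muscle, hypothalamus and white adipose tissue of the same kind of mouse were hybridised alongside, and the adipose arrays carry a title that names a preconfluent state. Because each organ was read by a single array per chip, the differences carry neither a test nor an error over animals, and their precision is limited by that number of arrays. In whole organs, fewer cells of a type and less RNA per cell cannot be told apart.

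Acinar cells, which make up most of the pancreas, store digestive enzymes in zymogen granules and release them into ducts after a meal. Hepatocytes, most of the liver, release albumin and other plasma proteins straight into the blood without storing them, and they carry the enzymes of urea synthesis, drug oxidation and bile acid formation. Both are epithelial cells with keratin 8 and keratin 18 as their main intermediate filaments, and both pass their products through the endoplasmic reticulum and the Golgi apparatus.

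With the arrays scaled to the same trimmed mean, those of pancreas had the larger noise bounds of the pair. For pancreas the noise bound came to 1166 (chip A) and 2607 (chip B), against 295.5 and 792 for liver, a ratio of 3.95 and 3.29. Of the members, 1198 were above the bound of both arrays, 361 of the pancreas array alone and 2160 of the liver array alone. For 1532 of the last group the liver value itself lay under the pancreas bound, so no direction could be read for them. Each log2 difference, pancreas minus liver, was therefore taken after raising both values to a common floor, the larger bound of the chip, and a fold is given as "at least" where the lower value had been raised. A probe set or gene was called for an organ at 4-fold or more.

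Bacterial and phage transcripts added to every hybridisation gave a second measure of scale. All 16 spike probe sets above both bounds were brighter on the pancreas array, by 2.68-fold to 7.95-fold, the median being 3.97 for chip A and 3.91 for chip B. Setting the spikes equal in place of the trimmed mean of the array lowers every difference by 1.99 on chip A and 1.97 on chip B before the floor, on the log2 scale, and brings the noise bounds to 585 for pancreas and 589 for liver on chip A and to 1319 and 1566 on chip B. The spike-scaled value is given beside the lists and many of the genes whose direction or call it changes. A gene measured in both organs and higher in pancreas by less than the spike ratio is higher in liver under it. The ratio of the 3′ to the 5′ control probe sets of Actb, a sign of RNA quality, was 4.74 in pancreas against 2.85 in liver (chip A) and 2.69 against 2.61 (chip B). For Gapdh it was 1.56 against 1.18 (chip A) and 1.09 against 1.35 (chip B). The part of RNA quality and of noise in the differences was not tested.

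The arrays carried the labelled organs. Prss2, anionic trypsinogen, had an intensity of 192976 in pancreas and −208 in liver. Apoh, the plasma protein beta-2-glycoprotein I, had −318 in pancreas and 23025 in liver. Krt8, keratin 8, had 3408 and 2788, and Apom, an apolipoprotein of high-density lipoprotein, 4137 and 7590. Prss2 and Apoh separated the organs, whereas Krt8 and Apom were above the bound in both and in none of muscle, hypothalamus and white adipose tissue.

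Over all probe sets, 129 were called for pancreas, a share of 0.988%, and 208 for liver, a share of 1.59%. Among the members alone these shares were 3.47% and 5.59%. Of 6123 named genes, 80 were called for pancreas (1.31%) and 130 for liver (2.12%), and for 60 of the 80 and 102 of the 130 the fold is a lower bound. Both values exceeded their bounds and lay within 2-fold of each other for 491 probe sets, 3.76% of all and 13.2% of the members, which came to 317 genes (5.18%). Over both chips 21 probe sets exceeded 50000 in pancreas and 0 in liver, but with the spikes set equal 7 did in pancreas and 27 in liver. The highest value was 192976 in pancreas and 40240 in liver, and 97651 and 79522 with the spikes set equal. The 10 brightest probe sets held 7.7% of the summed positive intensity of the pancreas array on chip A and 15.9% on chip B, against 4% and 5.8% in liver. Pancreas was the highest of the 5 tissues for 77 of its 80 called genes and liver for 117 of its 130.

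**Figure D1:**
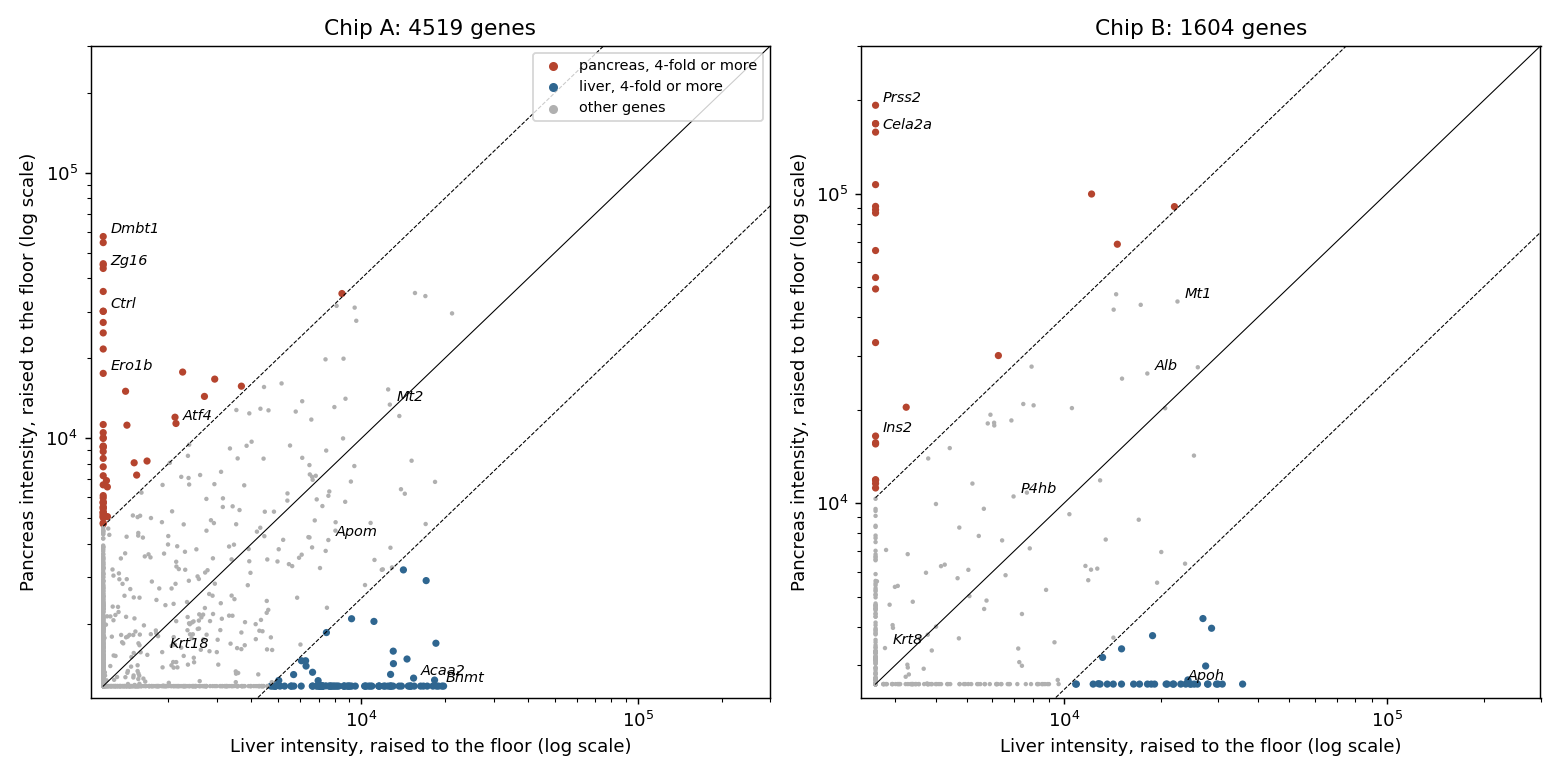
Intensity of each named gene in pancreas against liver on chip A and chip B, both axes on a log scale, with values at or under the floor drawn at the floor (1166 on chip A, 2607 on chip B); 1 array per organ and chip. The solid line marks equal values and the dashed lines 4-fold; the 80 genes called for pancreas lie beyond the dashed line on the pancreas side, 60 of them with liver at the floor and Prss2 highest at 192976, and 102 of the 130 called for liver have pancreas at the floor.

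The digestive enzymes of the acinar cell made up the pancreatic extreme. Each of 8 protease genes on the arrays was called for pancreas, against 1.31% of all genes, with a median log2 difference of 5.31, where the median over all 6123 genes was 0. Cela2a, a pancreatic elastase, had an intensity of 158008 in pancreas and 650 in liver, at least 60.6-fold higher. Prss2 was at least 74.0-fold higher and Try4, another trypsinogen, had 54524 and 41.9. Ctrl, a chymotrypsin-like protease, had 30028 and −59.9, and Cela1, a further elastase, 86631 and 766. The list also held Klk1, Klk1b5 and Klk1b9, kallikreins read by family design probes that can bind related kallikreins. They had 44909 and −381, 106959 and 379, and 21676 and 119. Without family or relaxed designs 5 genes were left, all 5 called for pancreas, with a median of 5.55. Without family, relaxed or shared designs 2 genes were left, 1 of them called, with a median of 2.89. In liver 0 of the 8 were above the bound.

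Enzymes for starch, fat and RNA followed the same pattern, with 7 of 8 genes called for pancreas and a median of 4.81. Rnase1, a secreted ribonuclease, had 168412 in pancreas and −764 in liver, and Amy2a5, pancreatic amylase, 168133 and 8. The lipid-digesting group held Clps, colipase, at 35696 and −304, Cel, the bile salt-dependent lipase, at 30101 and 8, and Pnliprp2, a lipase-related protein, at 24922 and −18. Amy1, the amylase of salivary gland and liver, was the only gene of the list also above the bound in liver, with 99739 and 12179, an 8.19-fold difference. With the spikes set equal its log2 difference fell from 3.03 to 1.07, under the threshold. The probes of Amy1 and of the Amy2 genes read closely related messages, and how far each contributes to another's value is not known.

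Proteins packed beside the enzymes were called for pancreas in 8 of 14 genes, with a median of 2.34. Spink1, which inhibits trypsin inside the granule, had 49226 in pancreas and 175 in liver. Zg16, a lectin of the granule membrane, had 43580 and 87.9, and Cuzd1, another granule protein, 27286 and −17. Reg1, a secreted lectin-like protein linked to regeneration, reached 45402 against −27, and Reg2 15548 against −262. Clps is counted in this list as well. Tff2, a trefoil peptide of mucus, had 88739 and −5, and Cckar, the receptor for the hormone that triggers enzyme release, 5039 and −17. The remaining 6 genes of the list had no value above the larger bound in either organ. Dmbt1, a mucosal scavenger glycoprotein outside the lists, had 57473 and −7, at least 49.3-fold higher.

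The promoters of Prss2 and Cela2a are shown because both held the E box CACCTG and the box TTTCCCA. Letters of these kinds are parts of sites of the acinar factor PTF1, which pairs a basic helix-loop-helix protein with RBPJ. The boxes were searched separately with no spacing set between them, so a joint PTF1 site was not sought. The sequences are from RefSeq (GRCm38.p6), 250 bases before to 50 after the start, 5′ to 3′ on the gene's strand, for Prss2 at chr6:41521526-41521825 (plus strand) and for Cela2a at chr4:141825956-141826255 (minus strand). Capitals mark the matches on either strand.
Prss2: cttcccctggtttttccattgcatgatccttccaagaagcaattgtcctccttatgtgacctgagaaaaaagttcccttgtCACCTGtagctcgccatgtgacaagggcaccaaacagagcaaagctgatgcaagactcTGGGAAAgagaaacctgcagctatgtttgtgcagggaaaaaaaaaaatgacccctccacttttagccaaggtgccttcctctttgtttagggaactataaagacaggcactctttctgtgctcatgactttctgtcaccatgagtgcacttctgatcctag
Cela2a: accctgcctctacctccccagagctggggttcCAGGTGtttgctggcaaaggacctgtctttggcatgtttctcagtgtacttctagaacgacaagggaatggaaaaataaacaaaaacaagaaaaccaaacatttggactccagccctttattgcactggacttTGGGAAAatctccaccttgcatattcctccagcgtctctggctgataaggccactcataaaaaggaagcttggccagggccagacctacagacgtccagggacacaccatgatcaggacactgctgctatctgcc
In Prss2 the E box began 169 bases and the TTTCCCA match 111 bases before the start, and in Cela2a they began 218 and 85 bases before it. Promoters were listed for 166 of the 210 called genes. CACCTG was present in 31.9% of 72 promoters of pancreas-called genes, in 22.7% of 128 of liver-called genes and in 20.2% of all 32851 promoters of the same length. TTTCCCA was present in 13.9%, 7.03% and 8.06%. In the first group it was also in those of Cd63, Cel, Dazap1, Ly86, Reg1, Rpl23, Rps24 and Slc38a5, so not in acinar enzyme genes alone. The TATA box letters TATAAA were present in 23.6%, 21.9% and 13.6%. These matches describe letters and not bound sites.

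Of 19 islet genes 31.6% had a member probe set and of 11 duct and biliary genes 27.3%, against 39.1% of all genes. The islet gene called for pancreas was Ins2, insulin, with 16490 in pancreas and 167 in liver. Ppy, pancreatic polypeptide, had 1964 and 492, at least 1.68-fold higher, but muscle also had 1664.5. Slc2a2, the glucose transporter of both beta cells and hepatocytes, had 467 and 6380 and was thus above the bound in liver alone. No duct or biliary gene was called, which for 11 genes is near the background of 1.31% and 2.12%. Muc1, a mucin of duct surfaces, had 4430 and 125, at least 3.80-fold higher. A second probe set of Ins2 had no value above the larger bound, and the median over both was 1.33.

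Genes of the endoplasmic reticulum lay higher in pancreas by smaller factors, a direction that flips with the spikes set equal. Of 41 genes, 28 were higher in pancreas and 1 in liver, with a median log2 difference of 0.82 that became −0.09 with the spikes set equal, and 8 were called for pancreas and 0 for liver. Over all genes the called shares were 1.31% and 2.12%. A member probe set was present for 82.9% of the list, against 39.1% of all genes. Ero1b, the pancreatic oxidase that supplies disulphide bonds, had 17547 in pancreas and 671 in liver, at least 15.0-fold higher. Manf, a secreted protein of the stressed endoplasmic reticulum, had 11262 and 1097, and Tram1, which helps chains through the translocon, 10498 and 799. Signal peptidase subunits were among the called genes, Spcs2 at 9243 and 1114 and Sec11c at 7225 and 375. So were Creld2, a folding protein, at 5763 and 237, Dnajc3, a cochaperone of BiP, at 8207 and 1679, and Atf4, a transcription factor of the stress response, at 11366 and 2136. The abundant chaperones differed less: Hspa5, BiP itself, had 19324 and 5918, Calr, calreticulin, 15076 and 4427, and P4hb, protein disulphide isomerase, 10522 and 6979, and with the spikes set equal each of these was higher in liver. A second probe set of Hspa5, on chip A, gave 17374 and 3117, a log2 difference of 2.48 against 1.71.

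**Figure D2:**
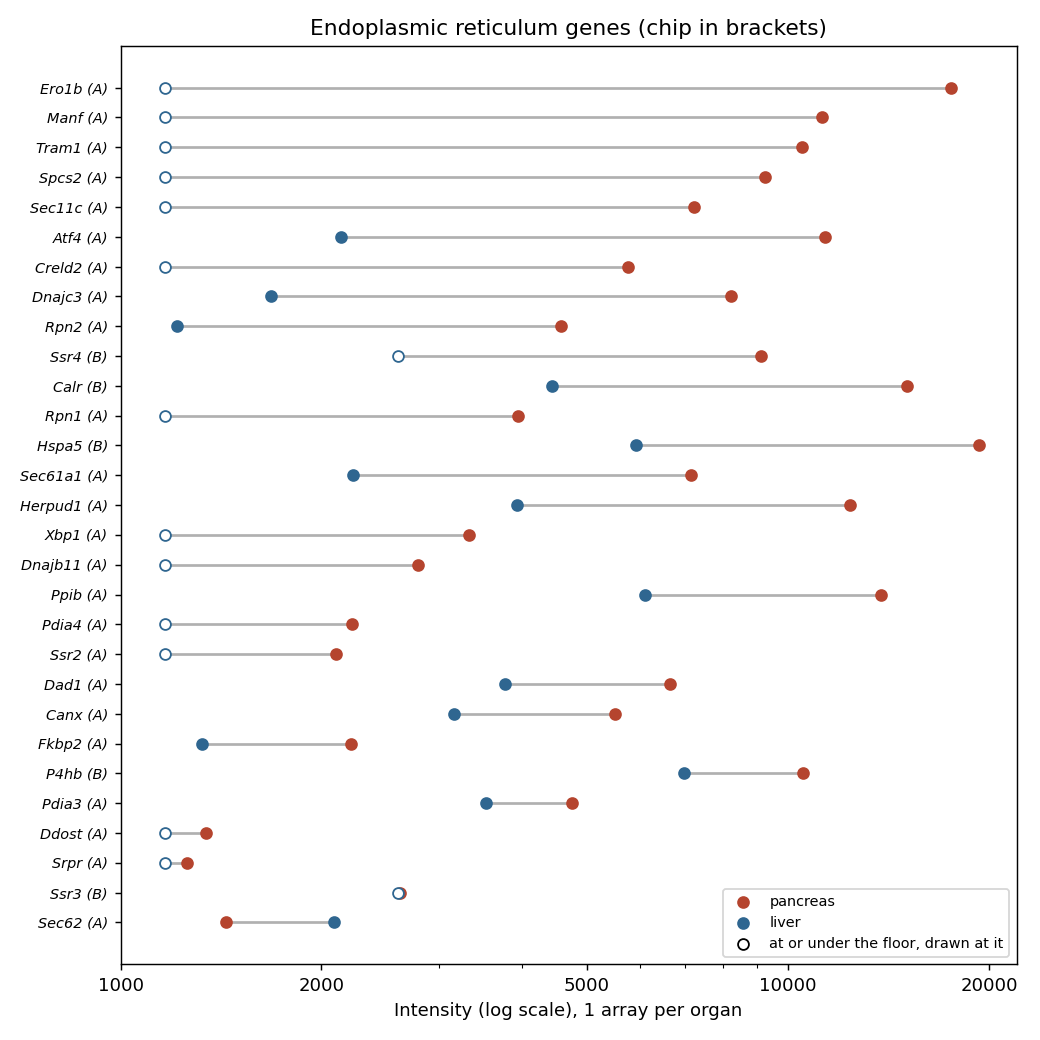
Intensity on a log axis in pancreas and in liver for the 29 endoplasmic reticulum genes whose floored values differed, 1 array per organ, with the chip in brackets; open points were at or under the floor and are drawn at it. Pancreas lies to the right in 28 of them and liver in Sec62 alone, an order that the spike scaling turns for the list as a whole, and the distance is longest for Ero1b (17547 against 671, the latter drawn at the floor).

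With the spikes set equal, 11 of the 41 genes were higher in pancreas and 22 in liver, and 3 were called for pancreas and 1 for liver. Ero1b was 1 of the 3 still called for pancreas under that scaling, with a log2 difference of 2.72. Manf came to 1.37, Tram1 to 1.73, Spcs2 to 1.06, Atf4 to 0.42 and Hspa5 to −0.26. Under the 75th percentile scaling the median was 0.36 with 26 genes higher in pancreas and 3 in liver. Genes of the Golgi and of vesicle transport had a median of 0 over 28 genes, with 13 higher in pancreas and 5 in liver, but with the spikes set equal the median was −0.81, with 4 higher in pancreas and 19 in liver. In this list 1 gene was called each way, near the background of 1.31% and 2.12%, and with the spikes set equal 1 for pancreas and 5 for liver. Those called under the trimmed mean were Kdelr3, a receptor that returns escaped proteins to the endoplasmic reticulum, at 5426 and 124, and Sar1b, a coat assembly protein, at 1453 in pancreas and 6068 in liver. A second probe set of Sar1b gave 135 and 520, both under the floor.

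The promoters of Ero1b, Dnajc3 and Creld2 are shown because each held the endoplasmic reticulum stress element through which ATF6 acts, searched as CCAAT and CCACG with any 9 bases between them. They lie at chr13:12565633-12565932, chr14:118937682-118937981 and chr15:88819396-88819695, all on the plus strand of GRCm38.p6 (RefSeq), and capitals mark the match on either strand.
Ero1b: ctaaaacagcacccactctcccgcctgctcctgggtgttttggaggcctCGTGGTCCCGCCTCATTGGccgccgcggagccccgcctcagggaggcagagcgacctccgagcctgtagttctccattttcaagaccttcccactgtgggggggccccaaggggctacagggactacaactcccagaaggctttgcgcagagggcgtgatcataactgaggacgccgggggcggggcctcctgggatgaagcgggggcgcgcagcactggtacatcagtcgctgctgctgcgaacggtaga
Dnajc3: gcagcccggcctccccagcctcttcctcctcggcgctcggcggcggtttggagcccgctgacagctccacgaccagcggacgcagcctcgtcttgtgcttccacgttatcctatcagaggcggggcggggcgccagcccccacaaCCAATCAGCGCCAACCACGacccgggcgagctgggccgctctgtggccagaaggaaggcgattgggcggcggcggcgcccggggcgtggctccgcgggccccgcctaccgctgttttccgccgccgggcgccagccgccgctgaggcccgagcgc
Creld2: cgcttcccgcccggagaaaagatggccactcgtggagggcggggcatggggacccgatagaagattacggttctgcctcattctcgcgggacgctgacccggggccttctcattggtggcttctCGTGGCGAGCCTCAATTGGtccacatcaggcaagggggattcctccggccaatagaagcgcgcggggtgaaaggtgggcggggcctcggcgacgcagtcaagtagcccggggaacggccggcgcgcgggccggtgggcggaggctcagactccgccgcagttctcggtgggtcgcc
The match began 201 bases before the start in Ero1b, 105 in Dnajc3 and 126 in Creld2. These were the only 3 of the 72 promoters of pancreas-called genes with the element, 4.17%, against 0 of 128 for liver-called genes and 39 of all 32851 promoters, 0.119%. Its last letters, CCACG, overlap the element and were present on their own or within it in 43.1%, 26.6% and 32.8%.

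Ribosomal protein genes were higher in pancreas in 33 of 40 genes and higher in liver in 0, with a median log2 difference of 1.22, but with the spikes set equal 6 were higher in pancreas and 27 in liver, with a median of −0.43. For 5 of them the difference passed 4-fold, against 1.31% of all genes, and for 0 with the spikes set equal. A member probe set was present for 82.5% of the list, against 39.1% of all genes. Rpl39, of the large subunit, had 17749 in pancreas and 2258 in liver, and Rpl12, also of the large subunit, 14371 and 2707. Rps24, of the small subunit, had 30003 and 6263, and Rplp0, the base of the ribosomal stalk, 68665 and 14638. Rpl23 had 35061 and 8501. At the other end Rpl41 had 29519 and 21246 and Fau, which encodes a ribosomal protein fused to a ubiquitin-like one, 7157 and 6631. Under the 75th percentile scaling the median was 0.65, with 31 genes higher in pancreas and 2 in liver. Most of these probe sets are of family or relaxed design and can bind related messages, and over the 13 genes with others the median was 0, with 6 higher in pancreas and 0 in liver.

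Translation factors and tRNA-charging enzymes did not share one direction. Of 33 genes, 13 were higher in pancreas and 9 in liver, and 3 were called for pancreas, against 1.31% of all genes. A member probe set was present for 72.7% of the list, against 39.1% of all genes. Asns, asparagine synthetase and a target of ATF4, had 8400 in pancreas and 26 in liver. Eef1b2, an exchange factor of elongation, had 6558 and 1207, and Tpt1, a translationally controlled protein, 90821 and 22003. Eef1a1, the elongation factor that delivers tRNA, had 34296 and 17017, while Pabpc1, which binds the poly(A) tail, had 2497 and 5682. Under the spike scaling 5 genes were higher in pancreas and 19 in liver, and Asns kept a log2 difference of 2.84 while Eef1b2 came to 0.45, Tpt1 to 0.08 and Eef1a1 to −0.98. Asns was at the floor in liver, and the floor moves with the pancreas bound, so the scaling could barely shift it. Eef1b2, Tpt1 and Eef1a1 were above the larger bound in both organs and took the full shift.

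**Figure D3:**
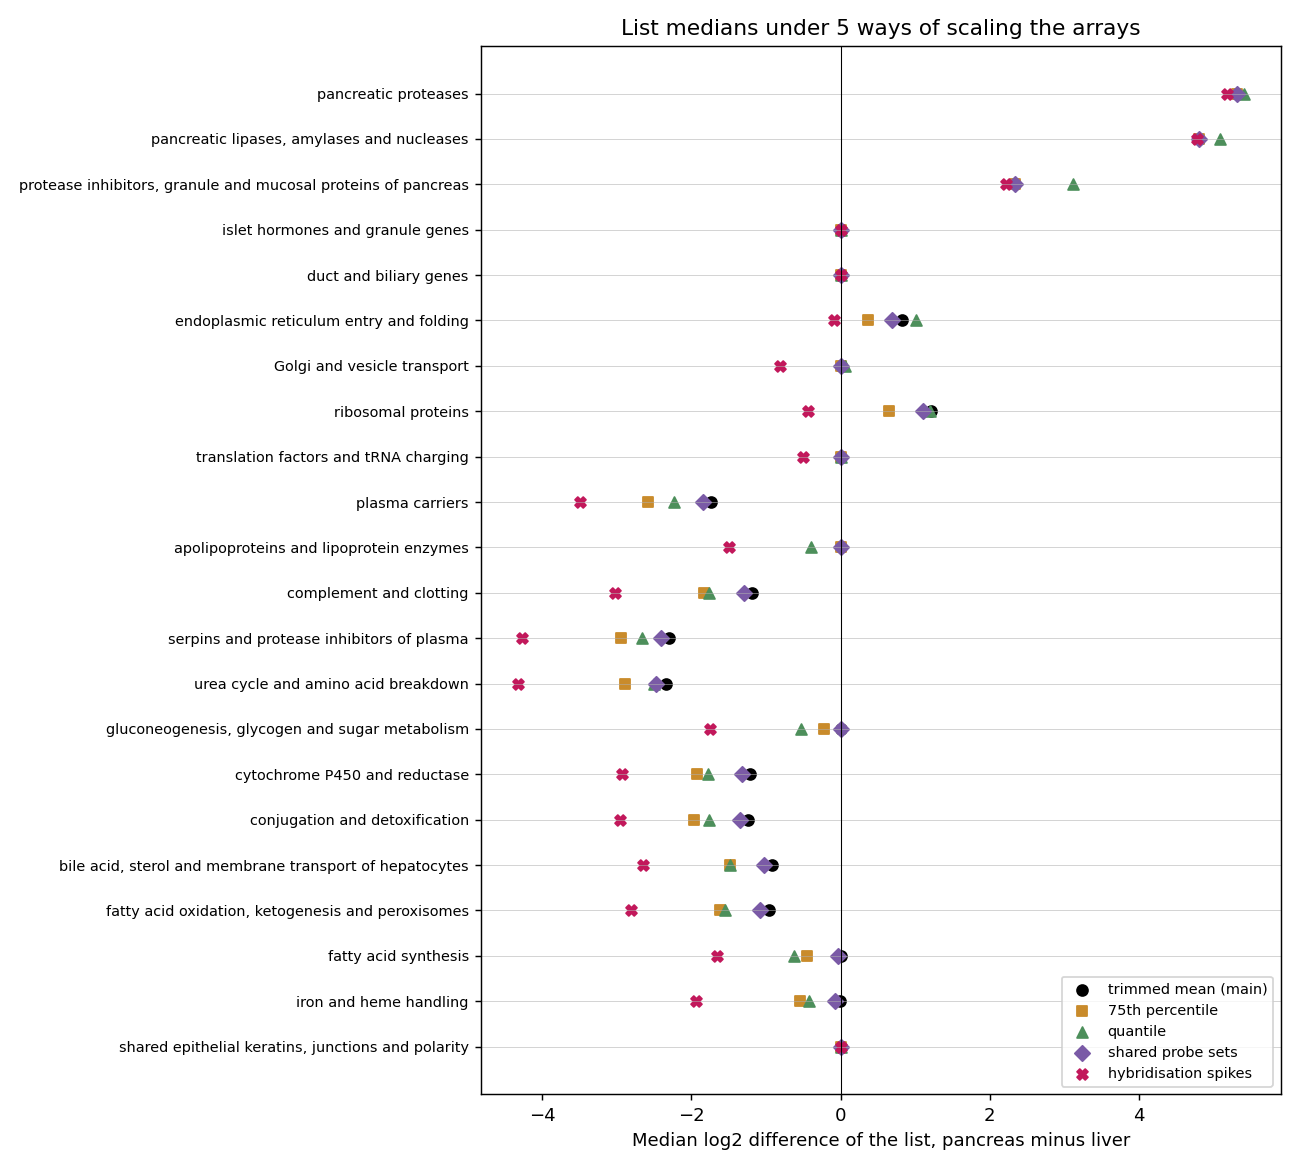
Median log2 difference, pancreas minus liver, of the first 22 gene lists under 5 ways of scaling the arrays, each marked by its own symbol. With the spikes set equal the urea cycle list passes from −2.34 to −4.33, the ribosomal median from 1.22 to −0.43 and the endoplasmic reticulum median from 0.82 to −0.09. The acinar enzyme lists stay between 5.19 and 5.31 and between 4.78 and 4.81 with the 75th percentile and spike scalings. With quantile normalization they reach 5.41 and 5.08. In them liver is at the floor except for Amy1, and the floor mostly follows the pancreas bound, so those 2 scalings could hardly move them.

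Plasma proteins formed the larger secreted group of the liver. Over 4 lists, 33 of 86 genes on the arrays were called for liver, against 2.12% of all genes, and 0 for pancreas, while 55 were higher in liver and 3 in pancreas. In these lists 83.3% to 91.7% of genes had a member probe set, against 39.1% of all genes. Among 33 carriers and acute-phase proteins 16 were called for liver, with a median of −1.74. Hrg, histidine-rich glycoprotein, had 924 in pancreas and 16745 in liver, Fgg, the gamma chain of fibrinogen, 984 and 15088, and Ambp, the precursor of alpha-1-microglobulin, 697 and 29696. Rbp4, the carrier of retinol, was above the larger bound in both organs, with 1691 and 18578, a 10.99-fold difference, and so was Ahsg, fetuin A, with 2911 and 17129. Hp, haptoglobin, had 1596 and 27868, but white adipose tissue also had 22597. Hamp, the iron hormone hepcidin, had 1609 and 20893.

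Alb, albumin, went against its list, with 26253 in pancreas and 18132 in liver. Muscle had 8227, and hypothalamus and white adipose tissue had 150 and 183, both under their bounds. It was read by a single probe set, of family design, and with the spikes set equal its difference turned from 0.53 to −1.43. Ttr, the carrier of thyroid hormone, had 1995 and 4146, and Selenop, which carries selenium, 14258 and 25293, and with the spikes set equal their log2 differences were −3.04 and −2.79.

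Clotting and complement genes were called for liver in 7 of 24, with a median of −1.18. Plg, plasminogen, had 448 in pancreas and 19802 in liver, at least 16.98-fold higher in liver. F2, prothrombin, had 2982 and 27495, and Vtn, vitronectin, 1475 and 14608, both measured in each organ. C8g, a subunit of the membrane attack complex, had −240 and 11534, and Cfb, complement factor B, 852 and 8863. Pros1, protein S, was the only gene of the list higher in pancreas, with 3655 and 1700. Under the spike scaling its log2 difference was −0.88, higher in liver.

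Inhibitors of proteases in plasma were called for liver in 6 of 12 genes, with a median of −2.29. Ambp is counted in this list as well. Pzp, an alpha-2-macroglobulin, had 9 in pancreas and 19533 in liver, and Serpina1a and Serpina1e, alpha-1-antitrypsin genes read by family probes, had 3949 and 28678, and 541 and 15070. Itih1, a heavy chain of inter-alpha-inhibitor, had 2689 and 24227. Cst3, cystatin C, a widely made inhibitor, had 9456 in pancreas and 2385 in liver and was higher in hypothalamus and white adipose tissue than in either. Its organs were level once the spikes were set equal, and 10 of the 12 genes were then higher in liver.

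Apolipoproteins and lipoprotein enzymes were called for liver in 6 of 19 genes and for pancreas in 0, and the list median was 0. Apoa2 had 2159 in pancreas and 25940 in liver, and Apoc1 2081 and 25346. Pon1, paraoxonase of high-density lipoprotein, had −321 and 14933, and Lcat, which esterifies plasma cholesterol, 1169 and 7430. Apoe had −642 and 10318, with 8664 in hypothalamus and 11174 in white adipose tissue. Apom was within 2-fold at 4137 and 7590, but with the spikes set equal it came to −2.86, past the threshold for liver. Its values in the other 3 tissues were 296, 57 and 71.

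Enzymes of hepatocyte metabolism were called for liver in 54 of 164 genes over 7 lists and for pancreas in 0, with 107 higher in liver and 12 in pancreas. Over all genes the called shares were 2.12% for liver and 1.31% for pancreas. In the 7 lists 83.3% to 100% of genes had a member probe set, against 39.1% of all genes. The urea cycle and amino acid list stood lowest, with 15 of 27 called and 26 of 27 higher in liver, and a median of −2.34. Bhmt, which remakes methionine from homocysteine, had 264 in pancreas and 18977 in liver, and Hpd, of tyrosine breakdown, −148 and 15507. Within the urea cycle Ass1 had −639 and 29984, Arg1 102 and 11586, Otc −296 and 9003, and Asl −848 and 7968. None of these 4 enzymes was above the bound in pancreas. Sardh, of choline breakdown, was within 2-fold, with 4828 and 8063.

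Cytochrome P450 genes were called for liver in 9 of 26, with a median of −1.22. Cyp2d26 had −358 in pancreas and 18674 in liver, Cyp3a11 −479 and 27961, and Cyp1a2 1902 and 23854. Cyp2e1, which oxidises ethanol and acetone, had 20 and 16360, but 17181 in white adipose tissue. Cyp2d10 gave opposite readings. Its probe set on chip B, of relaxed design, had 9601 in pancreas and 5646 in liver, and the one on chip A −86 and 10457, and with the spikes set equal the former also turned, to −1.20. Conjugation and detoxification genes were called in 13 of 41, such as Adh1, alcohol dehydrogenase, at 354 and 18115, Aldh1a1, which makes retinoic acid, at 1291 and 12740, and Gsta3, a glutathione transferase, at 602 and 30963.

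Genes of lipid handling were called for liver in several lists. Among 21 bile acid, sterol and transport genes 6 were called, with Fabp1, the liver fatty acid-binding protein, at −145 in pancreas and 17288 in liver, Hsd11b1, which reactivates glucocorticoid, at −92 and 35793, and Slc10a1, the bile acid uptake transporter, at 244 and 19096. Among 22 genes of fatty acid oxidation 7 were called, with Acaa2, the mitochondrial thiolase, at 1250 and 15427, and Abcd3, a peroxisomal transporter, at 1579 and 13024. In fatty acid synthesis 2 of 12 were called, against 2.12% of all genes, and the list median was 0. Scd1, the stearoyl-CoA desaturase, had 1229 and 18370, with 13927 in white adipose tissue. In sugar metabolism 2 of 15 were called, against the same 2.12%, and the list median was again 0. They were Fbp1, of gluconeogenesis, at 11 and 8674, and Ldha, which muscle held higher, at 29 and 13624. Iron and heme genes were called for liver in 5 of 20, of which Hp, Hamp, Hpx and Cp are also in the plasma list. Of all genes 2.12% were called for liver. A member probe set was present for 75% of the iron and heme list, against 39.1% of all genes. The ferritin chains were within 2-fold, with Fth1 at 12126 and 13700 and Ftl1 at 27500 and 25997, but with the spikes set equal they came to −2.17 and −1.88, higher in liver.

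The promoters of Pzp, Fabp1 and F2 are shown because they held GTTAAT, 1 arm of the palindrome bound by the hepatocyte factor HNF1, in genes at the liver extreme. They lie at chr6:128526671-128526970 (minus strand), chr6:71199629-71199928 (plus strand) and chr2:91636408-91636707 (minus strand) of GRCm38.p6 (RefSeq), with the matches on either strand in capitals.
Pzp: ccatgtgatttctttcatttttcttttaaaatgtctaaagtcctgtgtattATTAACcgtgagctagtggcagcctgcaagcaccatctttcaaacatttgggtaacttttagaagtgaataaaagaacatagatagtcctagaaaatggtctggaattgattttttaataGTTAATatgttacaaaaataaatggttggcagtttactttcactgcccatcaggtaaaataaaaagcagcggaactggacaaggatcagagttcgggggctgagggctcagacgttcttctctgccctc
Fabp1: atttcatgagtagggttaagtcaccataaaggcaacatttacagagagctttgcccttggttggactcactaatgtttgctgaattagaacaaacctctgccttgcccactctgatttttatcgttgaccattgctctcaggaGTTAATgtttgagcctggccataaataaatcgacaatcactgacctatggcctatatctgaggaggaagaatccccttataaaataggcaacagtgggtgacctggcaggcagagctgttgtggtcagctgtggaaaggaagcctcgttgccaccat
F2: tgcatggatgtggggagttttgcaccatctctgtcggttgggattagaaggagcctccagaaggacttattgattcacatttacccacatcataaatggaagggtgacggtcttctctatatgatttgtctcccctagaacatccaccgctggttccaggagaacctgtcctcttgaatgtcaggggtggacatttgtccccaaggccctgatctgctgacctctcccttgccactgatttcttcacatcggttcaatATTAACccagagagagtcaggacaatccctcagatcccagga
Matches began 199 and 79 bases before the start in Pzp, 107 before it in Fabp1, and 8 after it in F2. GTTAAT was present in 17 of 128 promoters of liver-called genes, 13.3%, against 3 of 72 for pancreas-called genes, 4.17%, and 7.1% of all promoters. The other liver-called genes with it included Apoe, Cp, Itih1, Serpina1a and Vtn. The full palindrome, GTTAAT and ATTAAC with any 1 base between them, was in 0 of either group and in 3 of all 32851.

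The keratins of simple epithelia were measured in both organs. Of 45 genes for keratins, junctions and polarity, 27 had a member probe set and 4 were above their bounds in both organs and within 2-fold, so the median of 0 reflects mostly values at the floor. In this list 1 gene was called for each organ, near the background of 1.31% and 2.12%, and 8 were higher in pancreas and 9 in liver. The spike scaling gave 6 and 21, with 0 called for pancreas and 8 for liver. Krt18 had 1566 in pancreas and 1905 in liver, a ratio of 1.22, beside the 1.22 of Krt8 the other way. A second probe set of Krt8, on chip A, had 1768 and 1800. In muscle, hypothalamus and white adipose tissue neither keratin was above its bound. Gjb1, the gap junction protein connexin 32, had 4558 and 5658. The called genes were Cd151, a tetraspanin, at 11200 and 1421, which muscle matched with 11276, and Pigr, the receptor that carries IgA across epithelia, at 1388 and 6305. With the spikes set equal Krt8 came to −1.68 and Krt18 to −2.27, both higher in liver, and Cd151 to 0.99.

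Of 41 transcription factor genes 17 had a member probe set, 41.5% against 39.1% of all genes, and 0 were called, which for a list of this size is near the background of 1.31% and 2.12%. The spike scaling gave 0 called for pancreas and 4 for liver. Nr5a2, a nuclear receptor of both acinar cells and hepatocytes, had 2720 in pancreas and 1859 in liver, and with the spikes set equal a log2 difference of −1.44. Xbp1, which drives the secretory programme, had 3324 and 958, and −0.19 with the spikes set equal. Foxa2, a foregut factor, had 321 and 375, the former under the bound. Nr1i3, the xenobiotic receptor CAR, had −54 and 1844, and Gata4 1292 and 131, so each was above the bound in 1 organ only.

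A stricter view of what the organs share asked whether the lower of the pancreas and liver values was at least 4 times the highest value or bound of muscle, hypothalamus and white adipose tissue. It was for 2 of 13057 probe sets, 0.0153%, and at 2-fold for 26, 0.199%. The 9 other pairs of tissues had 0 to 16 such probe sets at 4-fold, with 16 for liver and white adipose tissue and 13 for pancreas and muscle. The 2 were P4hb, with 10522 in pancreas and 6979 in liver against 1274, 1165 and 1417, and Stard10, a lipid transfer protein, with 6961 and 20030 against 1128, 1405 and 350. Mt1 and Mt2, the metal-binding metallothioneins, passed 2-fold, as Alb did: Mt1 had 44846 and 22487 with 6126 in hypothalamus, and Mt2 13386 and 12661 with 4397. Gamt, the last enzyme of creatine synthesis, had 7923 and 6485, and Vamp8, a vesicle fusion protein of zymogen granules, 5366 and 3625. Apom stood just under 4-fold, at 3.88. With the spikes set equal Mt1 came to −0.97, Mt2 to −1.91, P4hb to −1.37 and Stard10 to −3.49, each higher in liver, as did Gamt at −1.70 and Vamp8 at −1.42.

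**Figure D4:**
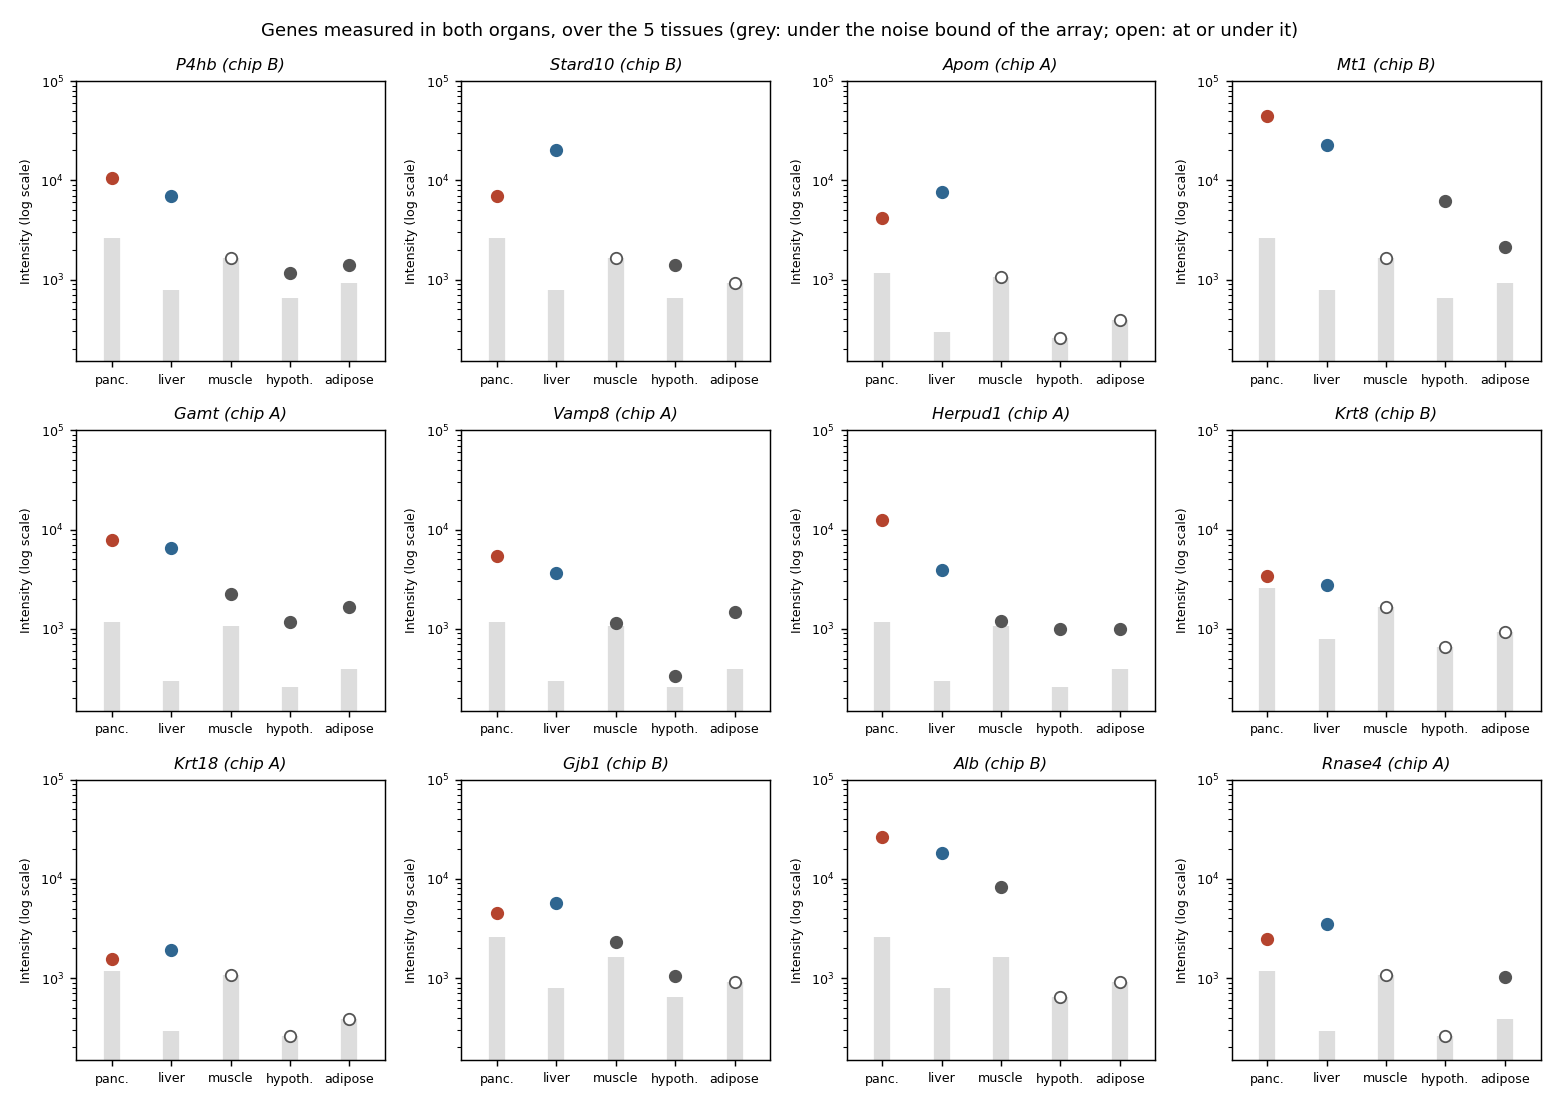
Intensity on a log axis of 12 genes measured in both organs, in pancreas, liver, muscle, hypothalamus and white adipose tissue, 1 array each; grey bars reach the noise bound of the array and open points were at or under it. P4hb and Stard10 stand 4-fold above the other 3 tissues in both organs, and Krt8 and Krt18 are above the bound in pancreas and liver only.

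Markers of other cells in the organs were seen in places. Of 25 lymphocyte and antigen presentation genes 1 was called for pancreas and 2 for liver, against 1.31% and 2.12% of all genes. A member probe set was present for 52% of them, against 39.1% of all genes. The pancreas call was Ptprc, the leukocyte antigen CD45, at 7266 and 1540. The liver calls were B2m and H2-K1, of class I antigen presentation, at 1534 and 24607 and at 3194 and 14174. Ptprc came to 0.25 with the spikes set equal, and the list then had 0 called for pancreas and 4 for liver. Ighm, the heavy chain of IgM, had 8462 in pancreas and 549 in liver. The summed intensity of the lymphocyte list was 21879 in pancreas and 30590 in liver on the first chip, A, and 15316 and 34527 on chip B. Globin messages, of red blood cells, were 43754 and 17298 for Hba-a1 and 18110 and 5806 for Hbb-b2, and with the spikes set equal they came to −0.63 and −0.32, higher in liver. The 3 red blood cell genes of chip B summed to 63208 in pancreas and 23864 in liver. Of 36 fibroblast and matrix genes 1 was called each way, near the background of 1.31% and 2.12%, Gas6 at 11918 and 1619 and Fn1, fibronectin and also a plasma protein, at 1094 and 10927. The summed fibroblast list was 23805 against 8895 for chip A and 43734 against 21342 for chip B, ratios under those of the spikes. Of its genes 9 were higher in pancreas and 2 in liver, but 4 and 9 with the spikes set equal, where Gas6 came to 0.91 and 0 were called for pancreas. Of 18 macrophage and Kupffer genes, 12 endothelial, 15 muscle and 14 neural genes 0 were called, as few as the background of 1.31% and 2.12% gives in lists this short. In the macrophage and Kupffer list 3 genes were higher in pancreas and 2 in liver. With the spikes set equal these were 2 and 8, and 2 were called for liver. Clec4f, which marks Kupffer cells, had 192 and 1338, whereas Lyz2 of the same list had 7270 and 2612. The list summed to 13035 in pancreas and 7324 in liver on chip A, and to 6132 and 6952 on chip B. Of 12 adipocyte genes 1 was called for liver, against 2.12% of all genes, and 0 for pancreas, while 2 were higher in pancreas and 2 in liver. The called gene was Car3, at 167 and 7790, with 10052 in muscle and 14580 in white adipose tissue. Higher in pancreas were Lpl, at 1775 and 356, and Retn, at 1379 and 165. Lipe, hormone-sensitive lipase, was under the larger bound in both organs. The part of these cells in the differences was not tested.

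**Figure D5:**
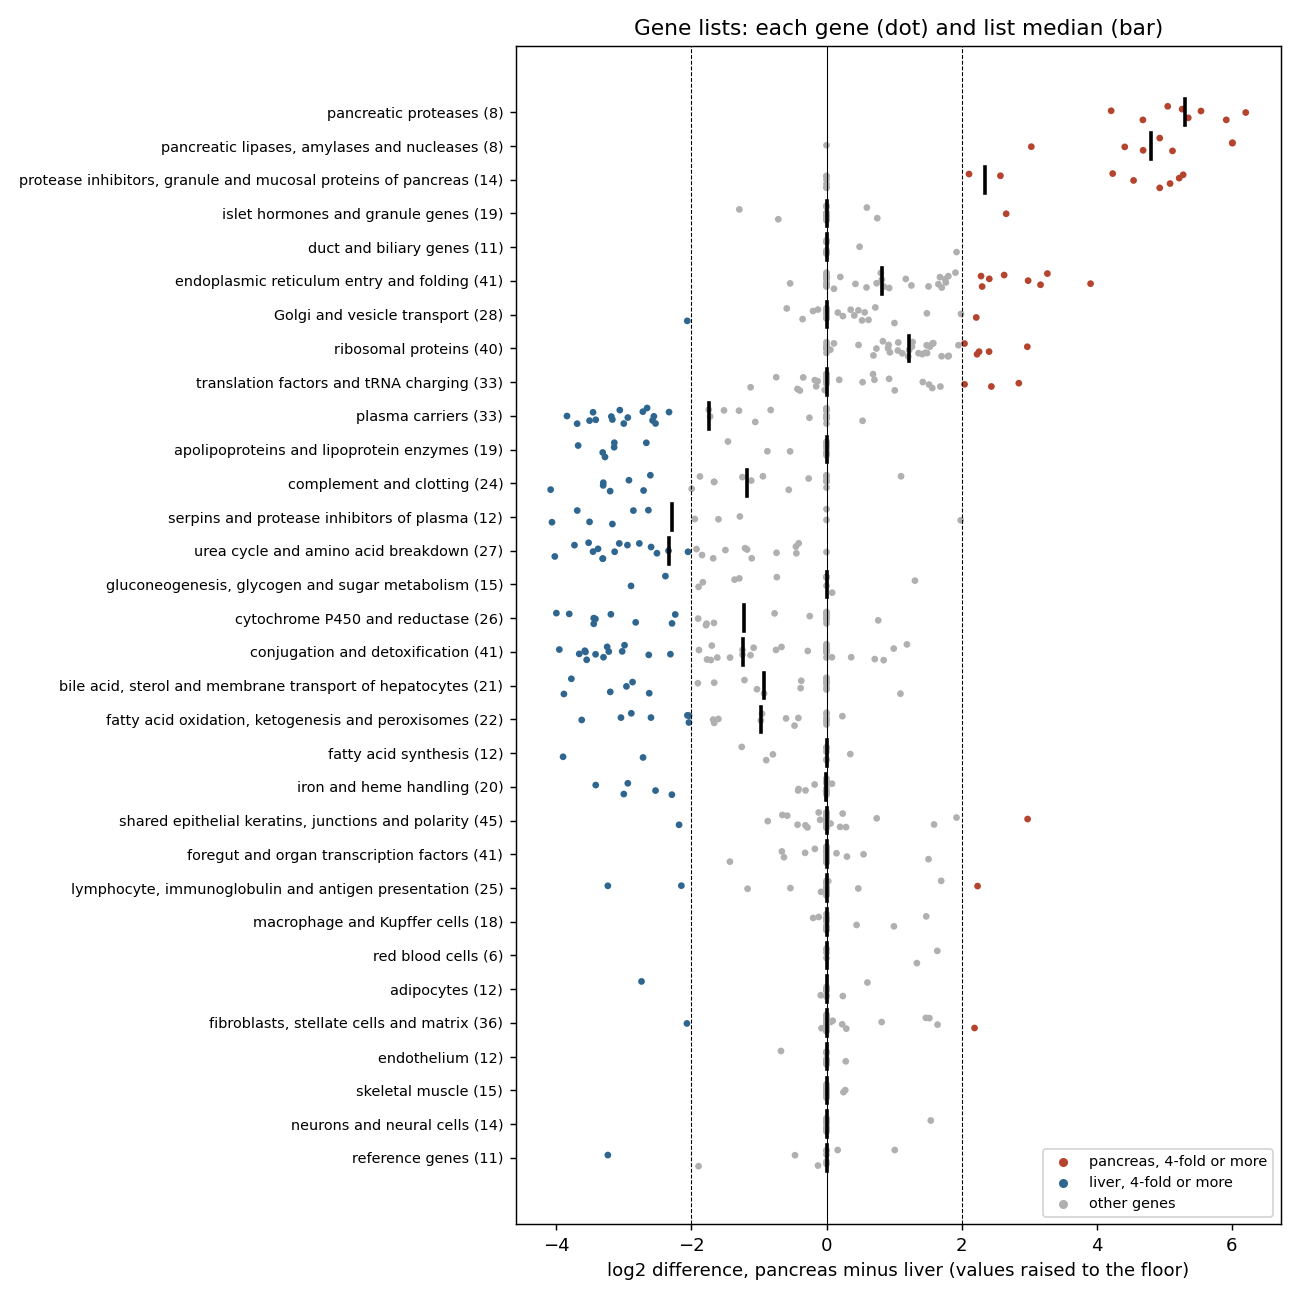
Log2 difference, pancreas minus liver, of each gene on the arrays (dots) in 32 lists, with the list median as a bar, the number of genes in brackets and dashed lines at 4-fold. The acinar lists lie to the right with medians of 5.31, 4.81 and 2.34, and most plasma and metabolic lists have medians to the left. The epithelial list has a median of 0 with many genes at the floor. The apolipoprotein, sugar metabolism and fatty acid synthesis lists also have a median of 0.

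Called genes outside the lists numbered 37 for pancreas and 36 for liver. Among the genes with both values above the larger bound, Nr2c2ap had the largest fold for pancreas, with 15026 and 1405, and H3f3b, a replication-independent histone, had 20432 and 3244. Dazap1, an RNA-binding protein chosen here after its value was seen, had 33043 and 822. Gal, the neuropeptide galanin, chosen in the same way, had 9347 in pancreas, 254 in liver and 2291 in hypothalamus. Under the spike scaling Nr2c2ap came to 1.43 and H3f3b to 0.69, under the threshold, and Dazap1 and Gal to 3.36 and 2.99. Dazap1 and Gal were at the floor in liver, where this scaling shifts a difference less. For liver Prdx1, a peroxidase, had 4244 and 26968.

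The technical spread of these ratios could be read from repeats within the series. For 11 probe sets present on both chips, of which 7 were controls for mouse genes, the direction was the same on both. The log2 difference differed between chips by a median of 0.23 and at most 0.96. The largest was for a probe set with liver at −2 on chip A and −110 on chip B, raised to floors that differ between chips. Several of the controls read the same gene, so the 11 are not independent. For 35 genes with more than 1 probe set measured in both organs the difference between probe sets had a median of 0.35 and a 90th percentile of 0.95. Other probe sets of the 80 pancreas-called genes were 25 in 20 genes, of which 4 were called too, 7 had the same direction, 14 were at the floor and 0 were opposite. For the liver-called genes 29 in 27 genes gave 12, 8, 8 and 1, the opposite one belonging to Orm1, with 1645 in pancreas and 53.9 in liver. Actb was read differently by its probe sets: the 3′ control on chip A had 18865 in pancreas and 2616 in liver, and the probe set that stands for the gene 4905 and 6779. At the call threshold Ly86 was just inside for pancreas with 4759 and 723 and Surf4 just outside with 8078 and 2030, and for liver Vkorc1 was just inside with 1855 and 7469 and C4bp just outside with 208 and 4652. At the bound of chip A Zfp954 was just inside as a member with 1168 and 292.5 and Tac2 just outside with 702 and 295.5.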

How the data were processed

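Labelled cRNA of each tissue was hybridised to 2 Affymetrix chips following the maker's manual of 2001, per the labels. The deposited intensity values are linear and partly below 0, so some signal had been subtracted by the authors, and each array's 2% trimmed mean over all probe sets lies between 499.8 and 500. Which software made them is not given in the sources used here. Control probe sets were removed, arrays were scaled to the mean of their chip's 5 trimmed means, and log2 differences were taken with the floor described above (Python 3.11.15, pandas 2.3.3, numpy 2.4.6). Pancreas and liver were compared within a chip, while counts, lists and the choice of named genes pool both chips, whose floors differ, so folds given as at least cannot be ranked. With 1 array per group no test was made; the code was tested on simulated data. Gene names came from platform annotation updated by gene identifier to GRCm38.p6: 5532 probe sets of chip A and 1993 of chip B had a symbol. A gene stands by its probe set with the highest within-chip rank over the 5 tissues.

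The members and the 32 lists were chosen with earlier results of these data known. Named genes were drawn from the 12 with the largest fold each way and the 12 with the largest fold each way among those measured in both organs. Further sources were the 5 genes per list with the largest difference and the 2 with the highest lower value. Measured epithelial, transcription factor and other-cell markers and the 12 brightest shared genes were used as well. Not every gene of these groups is named, so those shown are a selection. Other list genes named were chosen after their values were seen. Lists overlap, so their counts are not independent. Alternatives changed the scaling, floor, bound, threshold, probe set design and gene summary. The scaling to spikes and the removal of family and relaxed designs alone were added after seeing the data.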

Additional observations from a re-analysis of the deposited data

How the results depend on the processing

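Counts of called genes moved with the settings that bear on noise and scale, and of the genes called 0 were opposite under any alternative run. For the spike scaling this was fixed beforehand. It shifts a log2 difference by 1.99 on chip A and 1.97 on chip B, less than the threshold of 2. For pancreas and liver, in that order, called probe sets numbered 129 and 208 and genes 80 and 130. With the 75th percentile scaling they were 98 and 331 and 63 and 203; with quantile normalization 211 and 278 and 137 and 181; with each array's own bound as floor 534 and 208 and 339 and 130; with the median of the array medians as floor 1409 and 774 and 686 and 416; with a bound from the 5th percentile 333 and 350 and 216 and 226. Without probe sets of family, relaxed or shared design they were 24 and 15 and 18 and 12, fewer probe sets being left, and with the spikes set equal 60 and 869 and 40 and 587. A 2-fold threshold gave 437 and 430 and 275 and 280, an 8-fold threshold 40 and 86 and 31 and 56. Values as deposited, the shared-probe-set scaling, the 0.5th percentile bound, the removal of family and relaxed designs alone and the median over a gene's probe sets kept each of these counts within 1.5 times. Probe sets within 2-fold numbered 491, but 1113 with the 5th percentile bound and 43 without family, relaxed or shared designs. Probe sets shared by the pair numbered 2 at 4-fold, 26 at 2-fold, 0 at 8-fold and 43 with the median of array medians as floor.

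The median of 659 probe sets above the larger bound in both organs was 0.13, and −0.17 with the 75th percentile scaling, 0.21 with quantile normalization and −0.96 with the spikes set equal. Medians of lists changed sign in 3 cases: ribosomal proteins at −0.43 and the endoplasmic reticulum at −0.09 with the spikes set equal, and plasma protease inhibitors at 0.28 without family, relaxed or shared designs, where 1 gene of 12 was left. Of the genes called for pancreas 63 of 80 stayed called with the 75th percentile scaling and 40 of 80 with the spikes set equal, and each of the 130 called for liver stayed called under both. Both scalings move differences towards liver, so the liver calls could hardly be lost under them. The cause of these shifts was not tested. No paired analysis was possible because each group has 1 array. Signal over background limited the pancreas side, whose bound was 3.95 and 3.29 times that of liver, though with the spikes set equal the bounds were 585 and 589 on chip A and 1319 and 1566 on chip B.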
